A study of Mus musculus with 8 samples.

Results

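The replication-dependent histone genes of the mouse were read by NOMe-seq in fibroblasts before and during Etv2-induced reprogramming. Members were the protein-coding RefSeq genes of build mm10 whose current symbols begin H2ac, H2bc, H3c or H4c followed by a number, and each locus was the gene with 1000 bp on each side. By this rule 57 of 21887 protein-coding genes were members, 47 in the large cluster on chromosome 13 and 10 in the smaller one on chromosome 3. A further 10 genes carry the histone cluster names only as synonyms and were read apart as an alternative set. They are the linker histone genes H1f1 to H1f5, with H1f6 and H4bc24, in the chromosome 13 cluster, H2bu2 and H2aw on chromosome 11 and H4f16 on chromosome 6. Day 1 cells were mouse embryonic fibroblasts (MEFs) on the first day of reprogramming by Etv2, an ETS transcription factor of the endothelial and blood lineages, and day 0 cells were control MEFs. In NOMe-seq the enzyme M.CviPI methylates GpC cytosines that nucleosomes and other proteins leave free, and bisulfite sequencing reads that mark, so that the methylated share is a measure of accessibility. The 4 groups held 2 libraries each, namely day 1 treated with M.CviPI, day 1 untreated, day 0 treated and day 0 untreated. The labels do not say how Etv2 was expressed, nor that replicates were grown separately, and p-values may therefore measure technical spread alone.

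Replication-dependent histones package newly made DNA, and their genes are transcribed mainly in S phase. The genes have no introns in their short form, stand in clusters, and give messages that end in a stem-loop in place of a poly(A) tail. H2A and H2B form the outer dimers of the nucleosome core, H3 and H4 the central tetramer, and H1 binds the linker DNA between cores. Npat, a substrate of the cyclin E and Cdk2 kinase, drives their transcription at histone locus bodies in the nucleus. The symbol rule also takes in H2ac1 and H2bc1, which encode histone forms known from testis.

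Few of the promoters were read at all. Of promoter GpC cytosines not followed by G, a mean of 0.216% were read per library in members. This share was 0.857% in other protein-coding genes and 0.303% in those of at most 1500 bp. How many promoters of other genes had a covered cytosine was not counted. Sequences that were read are shown first because they hold every treated promoter call of the members whose promoter is known. Of 52 members with a promoter in the RefSeq table (build GRCm38.p6, 250 bp before to 50 bp after the start), 9 had a covered cytosine in any library and 2 had one in a treated library. The 250 bases before the start are printed for those 2, H2bc18 at chr3:96269450-96269699 (plus strand) and H2bc3 at chr13:23746484-23746733 (plus strand), and for H4c6 at chr13:23551669-23551918 (minus strand), which was read without the enzyme and shows the contrast of an H4 with an H2B promoter. Capitals mark the cytosines that were read.
H2bc18: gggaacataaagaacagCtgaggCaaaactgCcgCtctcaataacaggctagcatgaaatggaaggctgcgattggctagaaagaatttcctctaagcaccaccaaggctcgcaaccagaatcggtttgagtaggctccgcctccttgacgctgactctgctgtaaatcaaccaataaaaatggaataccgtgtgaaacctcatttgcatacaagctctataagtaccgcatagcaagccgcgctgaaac
H2bc3: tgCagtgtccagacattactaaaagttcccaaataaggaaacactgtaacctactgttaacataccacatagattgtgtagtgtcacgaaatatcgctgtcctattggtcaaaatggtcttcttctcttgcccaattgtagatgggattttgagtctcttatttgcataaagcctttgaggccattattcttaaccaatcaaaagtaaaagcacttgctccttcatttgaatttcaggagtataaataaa
H4c6: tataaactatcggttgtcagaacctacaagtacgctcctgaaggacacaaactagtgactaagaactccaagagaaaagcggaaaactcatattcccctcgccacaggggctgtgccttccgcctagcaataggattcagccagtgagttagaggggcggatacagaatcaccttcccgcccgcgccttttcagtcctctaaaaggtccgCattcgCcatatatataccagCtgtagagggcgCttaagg
The 4 capital cytosines of H2bc18, an H2B gene, lay from -233 to -216 bp of the start and were methylated in 12 of 12 calls in day 0 treated replicate 1, where a call is 1 read over 1 cytosine. The 1 capital cytosine of H2bc3, another H2B gene, lay at -248 bp and was methylated in 1 of 3 calls in day 1 treated replicate 1. The 4 cytosines of H4c6, an H4 gene, lay from -40 to -7 bp and were methylated in 0 of 12 calls in day 1 untreated replicate 2. Each promoter was thus read in 1 library, and no promoter can be compared between days.

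The printed H2B promoters both hold the octamer ATGCAAAT and CCAAT, and the H4 promoter holds neither. All motifs were sought on both strands. Over the 300 bp windows, CCAAT stood in 44 of 52 member promoters (84.6%), against 38.9% of 17430 promoters of other protein-coding genes. It was present in 17 of 17 H2A, 14 of 14 H2B and 10 of 10 H3 promoters but in 3 of 11 H4 promoters. The octamer, the letters that Oct1 (Pou2f1) is known to bind, stood in 23.1% of member promoters, against 1.64% of the others. It was found in 6 of 17 H2A and 6 of 14 H2B promoters and in none of the 10 H3 or 11 H4 promoters. TATAAA stood in 57.7% of member promoters and in 13.2% of the others. AAACACA, the H1 box, stood in 7.69% of member promoters and in 6.10% of the others, while 4 of the 5 H1f1 to H1f5 promoters held it. These matches describe letters and no binding was measured.

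Of the 52 members with a known strand, 18 stood in 9 head-to-head H2A and H2B pairs, with starts from 164 to 281 bp apart (median 180 bp). The loci of such neighbours overlap in part, so that a call in the overlap counts for both genes, and the pooled values of each cluster count each call once. In 11 member promoters (21.2%) a stretch of 50 bases also occurred in a promoter elsewhere, against 9.48% of the other promoters, and how reads were placed in such stretches is not stated in the labels or files.

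Depth over these loci was low. The libraries held from 1693307 to 3577740 calls at 439527 to 1012656 cytosines, but on chromosome 13 the 47 histone loci had between 9 and 39 covered cytosines per library and the 10 loci on chromosome 3 between 0 and 14. At histone loci no cytosine had more than 5 reads, and from 77.8% to 100% of the cytosines had exactly 3, the fewest the files hold. Single calls weigh heavily at this depth, and the intervals given cover counting error at most. These intervals, the limits for counts of 0 and the fold values built on them treat calls as independent. Neighbouring cytosines can lie on the same reads, so the intervals may be too narrow and the limits too low. On chromosome 13 the 36 calls of day 1 treated replicate 2 lay in 3 stretches of cytosines at most 150 bp from the next. The 27 chromosome 3 calls of day 1 untreated replicate 2 lay in 1 stretch.

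Chromosome 13 histone loci were read less densely than other genes. They had 0.136 ± 0.0649 covered cytosines per kb (SD, n = 8 libraries), against 0.367 ± 0.108 at all other protein-coding loci. The difference of -0.231 cytosines per kb had the same sign in 8 of 8 libraries (exact two-sided sign-flip permutation test, p = 0.00781, the smallest that 8 libraries allow). Here and below, sign-flip tests of coverage measure agreement between libraries over the same loci, not the spread between sets of genes. Against other genes of at most 1500 bp the difference was -0.121, and against the other genes of chromosomes 3 and 13 it was -0.126, each with the same exact permutation p of 0.00781. Against the DNA between the histone genes of the cluster, which had 0.113 ± 0.0345 cytosines per kb, the difference of 0.0225 did not pass the threshold (exact sign-flip permutation p = 0.0859). Without day 0 treated replicate 1 it was 0.0297 (p = 0.0156 by the same exact test).

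On chromosome 3 the histone loci had 0.384 ± 0.240 covered cytosines per kb (SD, n = 8 libraries), and the values ran from 0 to 0.717. The difference of 0.0170 from all other protein-coding loci was smaller than the spread between libraries (exact sign-flip permutation p = 0.922). The DNA between these genes had 0.160 ± 0.160 cytosines per kb, and the difference of 0.224 gave an exact sign-flip permutation p of 0.0313. Leaving out any 1 of 6 of the 8 libraries took this p to 0.0625, and 500 bp on each side took it to 0.219, so that the call was lost. The difference itself ran from 0.193 to 0.257 per kb with 1 library left out and was 0.185 with 500 bp.

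**Figure D1:**
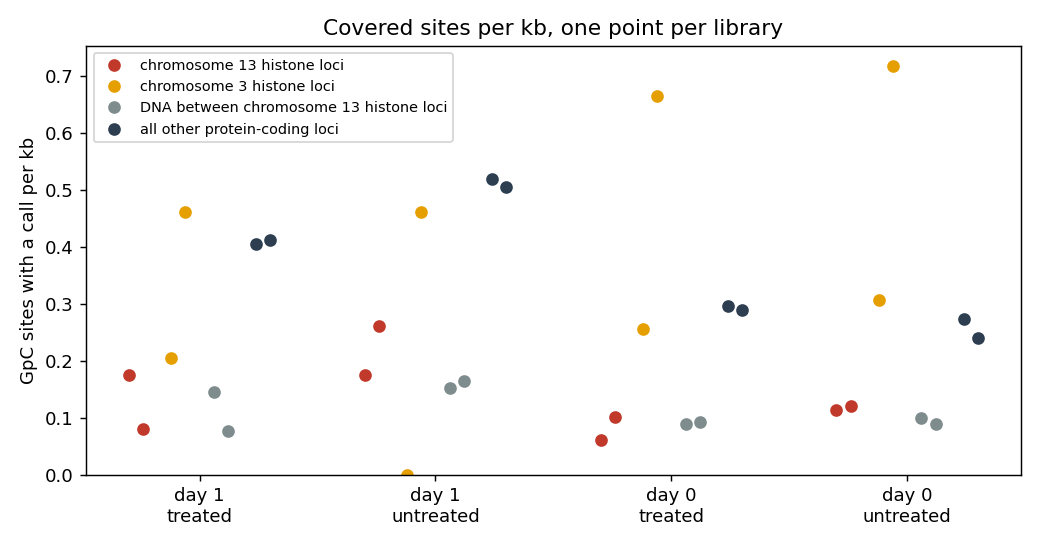
Covered GpC cytosines per kb (vertical axis) in each of the 8 libraries by group, for histone loci on chromosomes 13 and 3, the DNA between the chromosome 13 histone loci, and all other protein-coding loci; each point is 1 library. The chromosome 13 points (mean 0.136) lie below those of all other loci (mean 0.367) in 8 of 8 libraries, while the chromosome 3 points run from 0 to 0.717.

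Without the enzyme the histone loci gave almost no methylated call. On chromosome 13, 1 of 85 and 0 of 119 calls were methylated in day 1 untreated replicates 1 and 2, and 0 of 51 and 0 of 54 in the day 0 untreated ones. The single methylated call lay where the loci of H2bc9 and H3c7 overlap. A count of 0 of 119 allows a level of up to 2.52%, 0 of 51 up to 5.88% and 0 of 54 up to 5.56% (3 counts of the total). On chromosome 3 day 1 untreated replicate 1 had no call, and 0 of 27, 0 of 18 and 0 of 42 calls were methylated in day 1 untreated replicate 2 and in day 0 untreated replicates 1 and 2. At all other protein-coding loci the untreated levels were 1.02% ± 0.00452 on day 1 and 2.09% ± 0.0385 on day 0 (SD, n = 2 each).

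With the enzyme, the mean methylated share at the pooled chromosome 13 histone loci lay close to that at other genes, with single libraries on either side. H2bc6, which spans 37455 bp in this annotation, gave 51 of the 78 treated calls on day 0 and 27 of the 114 on day 1. Day 1 treated replicate 1 had 23 of 78 calls methylated, 29.5% (exact 95% Clopper-Pearson interval 19.7% to 40.9%), and replicate 2 had 12 of 36, 33.3% (18.6% to 51.0%). Day 0 treated replicate 1 had 11 of 27, 40.7% (22.4% to 61.2%), and replicate 2 had 8 of 51, 15.7% (7.02% to 28.6%). The 2 day 0 libraries enclosed both day 1 libraries, and the groups overlapped. Group means were 31.4% ± 2.72 on day 1 and 28.2% ± 17.7 on day 0 (SD, n = 2 each). The day 1 minus day 0 difference of 3.20 percentage points was smaller than the spread between the day 0 libraries (exact two-sided permutation test, p = 1, where 2 against 2 libraries cannot go below 0.333). Without day 0 treated replicate 2 the difference was -9.33 points, and with 2000 bp on each side it was -1.31 points, so that no direction held. With members of at most 1500 bp alone, which leaves out H2bc6, the difference was 6.48 points.

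Treated libraries stood 30.8 points above untreated ones on day 1 and 28.2 points above them on day 0 at the chromosome 13 loci. On each day both treated libraries were above both untreated ones, and each exact permutation p was 0.333, the smallest possible. The day 0 value rested on unequal libraries and was 15.7 points without day 0 treated replicate 1 and 40.7 without replicate 2. With members of at most 1500 bp alone the day 0 value was 25 points. Pooled over libraries, the day 0 level of 24.4% was 8.53 times the limit of 2.86% that 0 of 105 untreated calls allows. This ratio leaves out the spread of the treated level. The untreated day change was 0.588 points (exact permutation p = 1), and the treated day change minus the untreated one was 2.61 points (exact permutation p = 1, smallest possible 0.0556).

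Chromosome 3 histone loci had the higher levels of the pair of clusters in each treated library. Day 1 treated replicates 1 and 2 had 5 of 13 calls methylated, 38.5% (13.9% to 68.4%), and 13 of 27, 48.1% (28.7% to 68.1%). In day 0 treated replicates 1 and 2, 13 of 15, 86.7% (59.5% to 98.3%), and 14 of 39, 35.9% (21.2% to 52.8%), were methylated. The means were 43.3% ± 6.85 on day 1 and 61.3% ± 35.9 on day 0 (SD, n = 2 each), and the 2 days overlapped. The difference of -17.98 points gave an exact permutation p of 1, and without day 0 treated replicate 1 it was 7.41 points. Treated minus untreated was 43.3 points on day 1, where 1 untreated library had calls, and 61.3 points on day 0, and neither exact permutation test could go below its p of 0.333. The day 0 value was 35.9 points without day 0 treated replicate 1. Pooled levels were 45% on day 1 and 50% on day 0. These were 4.05 times and 10 times the limits of 11.1% and 5% that 0 of 27 and 0 of 60 untreated calls allow.

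**Figure D2:**
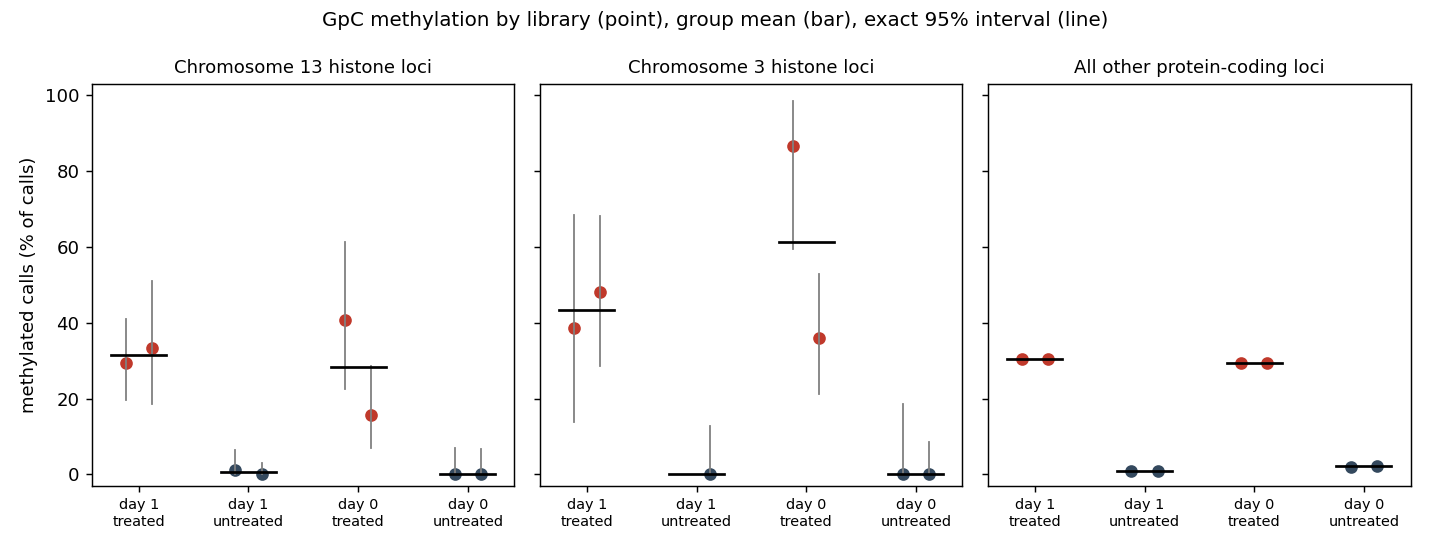
Methylated share of GpC calls (percent, vertical axis) per library at histone loci on chromosome 13, on chromosome 3 and at all other protein-coding loci; points are libraries, bars are group means and lines are exact 95% Clopper-Pearson intervals for the histone loci. Treated histone libraries run from 15.7% to 86.7% and overlap between days, untreated ones lie between 0% and 1.18%, and 1 day 1 untreated library had no call on chromosome 3.

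Set against the rest of the genome's genes within each treated library, the chromosome 13 loci differed by -0.0852 points on average (exact sign-flip permutation p = 1), where the other loci stood at 30.4% ± 0.0995 on day 1 and 29.3% ± 0.151 on day 0 (SD, n = 2 each). In replicates 1 and 2 the difference was -1.03 and 2.95 points on day 1, and 11.3 and -13.6 points on day 0. The small mean therefore does not show that the levels were equal. With members of at most 1500 bp alone the chromosome 13 difference was -1.66 points (exact sign-flip permutation p = 0.875). The chromosome 3 loci were 22.4 points above the other loci on average, higher in 4 of 4 treated libraries, with an exact sign-flip permutation p of 0.125, the smallest that 4 libraries allow. The chromosome 3 calls lay in 1 and 4 stretches of cytosines in day 1 treated replicates 1 and 2, and in 2 and 3 in the day 0 ones. Chromosome 13 minus chromosome 3 was -22.5 points (p = 0.125 by the same exact test). Leaving out day 0 treated replicate 1 took the chromosome 3 excess over other loci to 10.8 points and the chromosome difference to -14.7. With 500 bp on each side the excess was 16.8 points (exact sign-flip permutation p = 0.625) and the chromosome difference -16.7 (p = 0.375 by the same exact test). With the synonym genes included, loci outside chromosome 13 were 9.65 points above the other loci (exact sign-flip permutation p = 0.125), and chromosome 13 minus these was -9.63 (p = 0.25 by the same exact test). Against the DNA between the histone genes the differences were 2.74 points on chromosome 13 and 16.6 points on chromosome 3 (exact sign-flip permutation p = 0.625 each). On chromosome 3 that DNA had between 3 and 27 treated calls per library, and without day 0 treated replicate 1 the difference was -6.70 points.

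By histone type, the pooled treated level ran from 28.9% to 41.5%, with intervals that overlap. H2A loci (17 genes) had 13 of 45 calls methylated, 28.9% (exact 95% Clopper-Pearson interval 16.4% to 44.3%), and H2B loci (16 genes) had 73 of 192, 38.0% (31.1% to 45.3%). H3 loci (12 genes) had 34 of 82, 41.5% (30.7% to 52.9%), and H4 loci (12 genes) had 12 of 36, 33.3% (18.6% to 51.0%). Calls where loci of different types overlap count for each type, as at H2A and H2B pairs, H3c13 with H2bc18 and H3c3 with H2bc3. The levels of H3 and H2B loci are therefore not separate data, and the types were not tested against each other. H2B loci had 36.8% and 37.8% of calls methylated in day 1 treated replicates 1 and 2, and 63.6% and 24.6% in the day 0 treated ones. H3 loci had 16 of 49 and 4 of 6 calls methylated in the day 1 replicates, and 14 of 18 and 0 of 9 in the day 0 ones. Within both types the day 0 libraries lay on either side of the day 1 libraries. In day 0 treated replicate 1 both types include the 12 of 12 methylated calls that H3c13 and H2bc18 share. The linker genes H1f1 to H1f5 had 3 of 9 treated calls methylated, all in day 1 replicate 1. Without the enzyme they had 0 of 57 calls methylated on day 1 and 4 of 36 on day 0, and these 4 were among 12 calls at H1f3 in day 0 untreated replicate 1.

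Of the 57 members, 24 had a call in a treated library, 20 of them on day 1, 11 on day 0 and 7 on both days. A further 11 were read in untreated libraries alone, and 22 had no call in any library. The 33 members without a treated call were 57.9% of all, against 13.02% of the other protein-coding genes and 62.2% of the other genes of at most 1500 bp. Among the 52 members of at most 1500 bp the share was 61.5%. H2bc6 was the 1 member with calls in all 4 treated libraries. Over the whole genome the day 1 treated libraries held 792322 and 810078 cytosines and the day 0 treated ones 568331 and 559372. The split of genes by day was not counted for other genes, so the member counts by day are not read as a change.

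H2bc6 encodes an H2B and spans 37455 bp in this annotation (chr13:23583670-23621124, minus strand), while the median member spans 487 bp. Its locus therefore covers far more than a short histone gene, and it held 78 treated calls. Day 1 treated replicates had 4 of 18 and 4 of 9 calls methylated, and day 0 treated replicates 4 of 12 and 6 of 39. The highest share was in a day 1 library and the lowest in a day 0 library, and the days overlapped. Untreated calls were 0 of 30 and 0 of 66 on day 1 and 0 of 39 in day 0 replicate 1, with none in replicate 2.

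In the fit by locus across all protein-coding genes, edgeR's quasi-likelihood test compared methylated with unmethylated counts where each library of the contrast had at least 5 calls. Between day 1 and day 0 treated libraries 1 member, H2bc6, could be tested and 0 were called, where 0% of 10526 loci were called at an adjusted p of 0.05 and 334 had an unadjusted p under 0.05. Limma on the log2 odds also called 0. H2bc6 changed by 0.75 on the log2 odds scale (SE 1.30, edgeR adjusted p = 1.00), and by -0.19 without day 0 treated replicate 2. Between treated and untreated libraries on day 1, H2bc6 was the 1 member tested and it was called (edgeR adjusted p = 0.000835), where 96.8% of 12097 loci were called, so the call is that of nearly every locus. Its pooled day 1 level of 29.6% was 9.48 times the 3.13% that 0 of 96 untreated calls allows. On day 0 no member had enough calls, and 91% of 9410 loci were called.

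The H3 and H4 genes with the most calls in treated libraries were on chromosome 3. H3c13 (chr3:96268654-96269155, plus strand), an H3 gene, had 5 of 13 and 4 of 6 calls methylated in day 1 treated replicates 1 and 2, and 12 of 12 in day 0 treated replicate 1. H2bc18 (chr3:96269700-96270192), its neighbour, had 4 of 6 in day 1 treated replicate 2 and 12 of 12 in day 0 treated replicate 1, and the cytosines printed above lie in both loci. These fully methylated calls make up most of the 13 methylated calls behind the 86.7% of day 0 treated replicate 1 on chromosome 3. H4c14 (chr3:96262934-96263317), an H4 gene, had 4 of 12 calls methylated in day 1 treated replicate 2 and 6 of 21 in day 0 treated replicate 2, and in untreated libraries 0 of 27 on day 1 and 0 of 12 on day 0. H2bc21, an H2B gene, had 1 of 3 calls on day 1 and 8 of 18 on day 0. H2ac18, an H2A gene, had 4 of 6 calls on day 1, and H2ac21, also H2A, had 1 of 3 on day 0 against 0 of 42 in the day 0 untreated libraries.

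On chromosome 13 the H3 gene H3c10 had 4 of 9 treated calls methylated on day 1 and 0 of 9 on day 0, beside 0 of 17 untreated day 1 calls. H3c3 had 5 of 15 on day 1 and 0 of 3 on day 0. H3c11 had 2 of 12 on day 1, and H3c4 had 2 of 3 on day 0. Each of these values came from 1 library per day, so the days were not tested for single genes. Among H2B genes H2bc13 had 9 of 15 on day 1, H2bc9 6 of 12, H2bc3 5 of 15 and H2bc22 1 of 6, while H2bc4 had 5 of 9 on day 0. H2A genes had 4 of 9 at H2ac13, 0 of 6 at H2ac12 and 0 of 3 at H2ac15, all on day 1. The head-to-head pairs shared calls, with 2 of 15 at both H2ac1 and H2bc1 and 2 of 3 at both H2ac8 and H2bc8 on day 1. In day 1 treated replicate 1 further neighbours shared calls. H3c3 and H2bc3 had the same calls there, and those of H2ac13 and H3c10 were among those of H2bc13. The values of such neighbours are not separate results. H4c1 was the 1 H4 member of this cluster with treated calls, 2 of 3 on day 0, against 0 of 36 in day 0 untreated libraries.

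**Figure D3:**
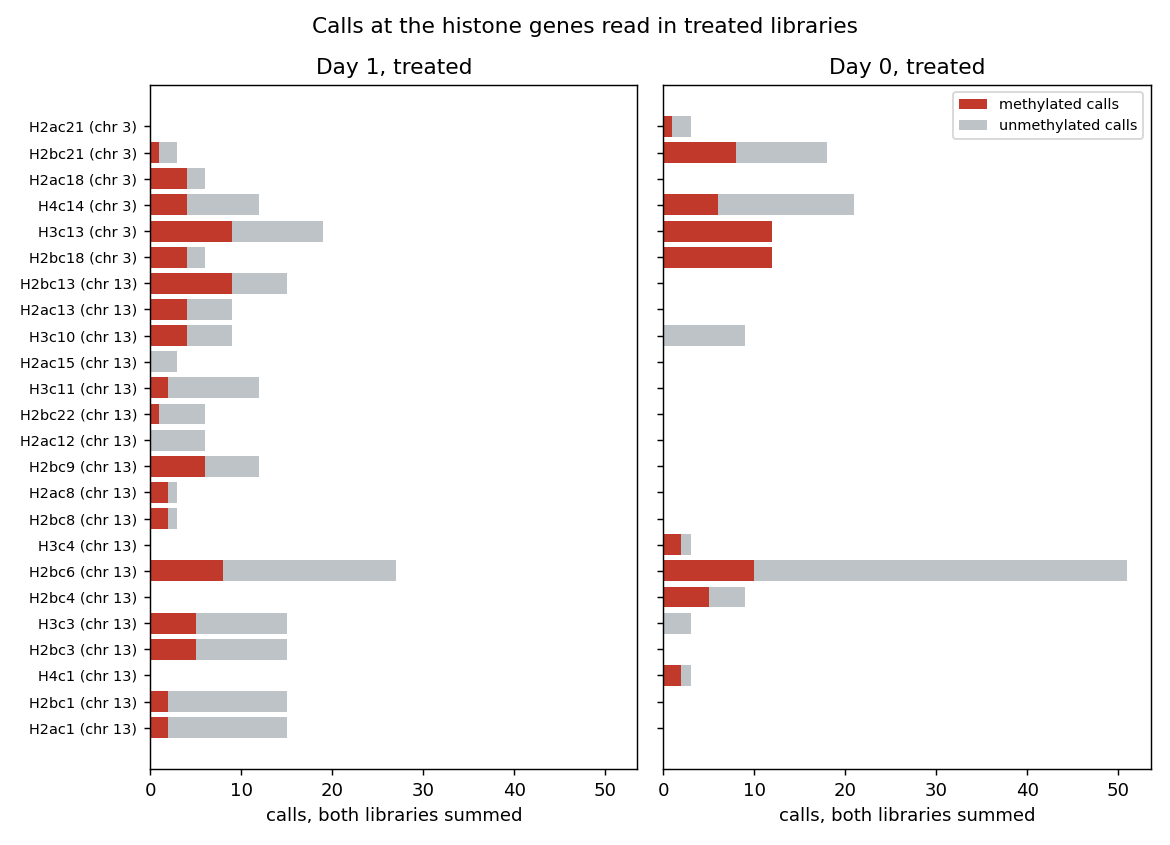
Methylated and unmethylated calls (horizontal axis, both treated libraries of a day summed) for the 24 histone genes with a treated call, day 1 on the left and day 0 on the right. H2bc6 holds the most calls on both days, 13 genes have calls on day 1 alone and 4 on day 0 alone. The day 1 treated libraries held more cytosines over the whole genome, and the split by day was not counted for other genes. Calls where loci overlap are shown at each gene.

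Around the start of transcription the histone genes lacked the peak of coverage seen at other genes. In the first 500 bp after the start they had 6.97 ± 10.6 covered cytosines per 100 genes and library, against 61.3 ± 11.02 at the other genes (SD, n = 8 libraries), lower in 8 of 8 libraries (exact sign-flip permutation p = 0.00781). Other genes of at most 1500 bp had 25.5 ± 2.99, above the histone genes in 7 of 8 libraries (exact sign-flip permutation p = 0.0156). In the 500 bp before the start the histone genes had 8.41 ± 8.78 and the other genes 36.3 ± 6.98 (exact sign-flip permutation p = 0.00781), but other genes of at most 1500 bp had 8.88 ± 2.03 (exact sign-flip permutation p = 0.914). From the start to 250 bp after it none of the 52 histone genes with a known strand had a covered cytosine in a treated library. Other genes had 19700 there, with 45.9% of calls methylated.

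**Figure D4:**
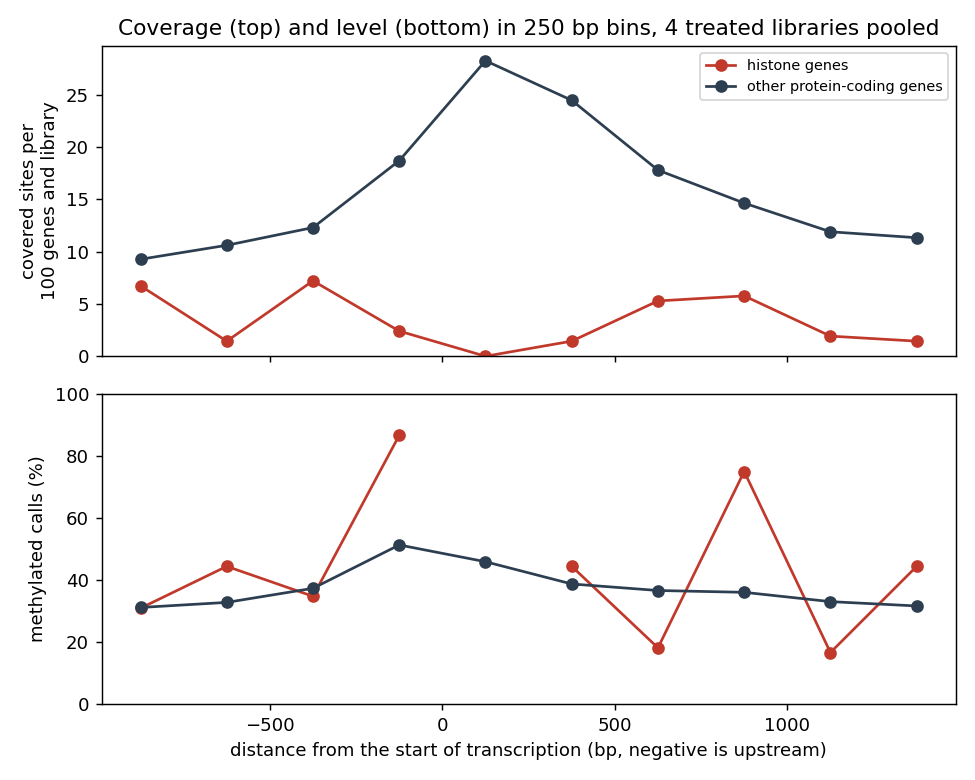
Covered cytosines per 100 genes and library (top) and methylated share of calls (bottom, percent) in bins of 250 bp by distance from the start of transcription in bp, for 52 histone genes and 17430 other protein-coding genes, with the 4 treated libraries pooled. The histone line is at 0 covered cytosines in the first 250 bp, where the other genes have their highest value, and each of its levels rests on few calls (86.7% of 15 calls in the bin before the start).

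At every promoter cytosine read, in all genes, the letters were GCH, that is GpC followed by a base other than G, which was 100% of 5024 to 7658 cytosines per library. Of the 1331 GCH cytosines in the member promoters 0.216% ± 0.222 were read in a library, against 0.857% ± 0.147 in the other promoters (SD, n = 8 libraries), lower in 8 of 8 (exact sign-flip permutation p = 0.00781). In promoters of other genes of at most 1500 bp 0.303% ± 0.0768 were read, and the histone promoters differed from these by -0.0865 points (exact sign-flip permutation p = 0.258). Member promoters had a median G and C content of 45%, against 56.3% in the others, and a median of 18 against 23 GpC per promoter, and the part of base composition in the coverage was not tested.

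Replication-independent histone variants and the factors of histone gene expression, chosen as lists of related genes, held more treated calls per library than the histone loci of either cluster. Both lists include genes far longer than the median member of 487 bp, such as Macroh2a1 and Pou2f1. The calls were not divided by length, so this is no comparison of depth. The 12 variant genes, which supply histones outside S phase, had treated levels of 28.5% and 31.4% on day 1 and 39.2% and 43.0% on day 0. Day 0 libraries lay above day 1 libraries, yet 0 of the 3 variant genes tested were called in edgeR, with a median log2 odds change of -0.53, against 0.09 over all loci tested. Macroh2a1, which encodes a macroH2A, had 31.9% and 22.6% on day 1 and 32.8% and 36.9% on day 0. H1f10, a linker variant, had 27.2% in its 1 day 1 library with calls and 52.2% and 81.5% on day 0.

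The 26 factors of histone gene expression and histone assembly showed the same order, with 24.9% and 26.8% on day 1 and 36.2% and 36.5% on day 0. Of these, 14 could be tested, 0 were called and 1 had an unadjusted p under 0.05, with a median log2 odds change of -0.89. Chaf1a, the large subunit of the CAF-1 histone chaperone, had 24.4% and 22.1% on day 1 and 41.7% and 31.8% on day 0. Hinfp, which activates H4 genes, had 23.1% and 22.2% on day 1 and 55.6% and 33.3% on day 0. These levels rest on 48 treated calls on day 1 and 24 on day 0. In day 1 untreated replicates 1 and 2 Hinfp had 14.8% and 0%, so its background was high in 1 library. Cdk2, the kinase that acts on Npat, had 33.3% and 35.9% on day 1 and 23.2% and 33.3% on day 0, the other order. Marker loci of fibroblasts had 31.8% ± 0.416 on day 1 and 37.0% ± 2.38 on day 0, those of endothelium 26.6% ± 1.49 and 28.4% ± 3.14, and those of blood 23.2% ± 0.116 and 28.1% ± 4.15 (SD, n = 2 each). These are accessibility levels and not RNA, and their part in the histone values was not tested.

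Among the genes named for histone clusters only by synonym, H4f16 on chromosome 6, an H4-type gene, was the most deeply read. It had 33 of 60 and 3 of 16 calls methylated in day 1 treated replicates and 2 of 12 and 3 of 12 in the day 0 treated ones. Methylated calls were also seen in each untreated library, 2 of 62 and 7 of 34 on day 1 and 1 of 3 and 2 of 73 on day 0. The day 1 against day 0 change was 1.48 on the log2 odds scale (SE 1.19, edgeR adjusted p = 1.00). On day 1, treated against untreated was 2.74 (SE 1.02, edgeR adjusted p = 0.0103). H2bu2 on chromosome 11, an H2B-type gene, had 1 of 6 treated calls methylated on day 1 and 6 of 25 on day 0.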

How the data were processed

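NOMe-seq was read in 8 libraries of mouse embryonic fibroblasts in 4 groups of 2, taken from the labels. The deposited files list, per cytosine, a methylated fraction that the authors rounded and a count of reads, on mm10 per the submitters' processing notes; both units were read from the values, since the columns have no header. Not given in the sources used here are the aligner, the caller and whether duplicates were removed. Methylated calls were the rounded product of fraction and count, which was whole within rounding at 100% of sites, and no site at a histone locus had over 100 reads.

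Calls were pooled per library over the gene and 1000 bp on each side (RefSeq GRCm38.p6, the same build as mm10), and libraries were compared with exact permutation tests. Methylated and unmethylated counts per locus were fitted over all protein-coding genes in edgeR 4.0.16 (R 4.3.3; quasi-likelihood, 5 calls in each library of a contrast, Benjamini-Hochberg at 0.05, no replicate block), tested on simulated data. Alternatives were limma 3.58.1, other flanks, read limits and members, and libraries left out. Python 3.11.15, numpy 2.4.6, pandas 2.3.3 and scipy 1.17.1 were used. The genes named are the 25 members with the most treated calls, of which 24 had any, those called in the fit, and examples from the related lists with 20 treated calls on each day. H4f16 and H2bu2 were named for their calls after the values were seen. The members and lists were chosen with earlier results of these data known.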

Additional observations from a re-analysis of the deposited data

How the results depend on the processing

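Of 375 alternative values for 27 results, 339 kept their direction and their side of the threshold, but the permutation tests of levels cannot reach it at these numbers of libraries, so this says nothing of their stability. With 2000 bp on each side the treated day change on chromosome 13 was -1.31 points and the treated minus untreated day change -1.96, and chromosome 3 differed from other loci by -0.0662 covered cytosines per kb. With 500 bp on each side chromosome 13 differed from other loci by 0.0902 points, and coverage over the DNA between the genes by 0.0411 per kb on chromosome 13 (p = 0.0156, exact permutation) and 0.185 on chromosome 3. With members by synonym included, chromosome 13 differed from other loci by 0.0142 points and its untreated day change was -2.44; outside chromosome 13 treated minus untreated on day 0 was 34.1 points against 61.3 as reported, the treated day change was 5.37, the untreated one 2.66, their difference 2.71 and coverage 0.403 per kb above other loci (p = 0.00781, exact permutation). Over stretches of at most 50000 bp, chromosome 13 loci differed from the DNA between them by -1.74 points, and members of at most 1500 bp by -0.000487 covered cytosines per kb. Against other genes of at most 1500 bp, the promoter difference was -0.0865 points and that before the start -0.46 cytosines per 100 genes.

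With 1 library left out, treated minus untreated on day 0 ran from 15.7 to 40.7 points on chromosome 13 and from 35.9 to 86.7 on chromosome 3, and the treated day change ran from -9.33 to 15.7 points on chromosome 13 and from -43.4 to 7.41 on chromosome 3. The untreated day change on chromosome 13 ran from 0 to 1.18, and the net change from -9.92 to 15.1 on chromosome 13 and from -43.4 to 7.41 on chromosome 3. Differences from other loci ran from -3.88 to 4.40 points on chromosome 13, and those from the DNA between the genes from -1.38 to 7.77 on chromosome 13 and from -6.70 to 33.9 on chromosome 3. Chromosome 13 coverage against the DNA between the genes ran from 0.0119 to 0.0297 per kb. Chromosome 3 coverage ran from -0.0488 to 0.0935 per kb against other loci and from 0.193 to 0.257 against the DNA between the genes. H2bc6 ran from -0.19 to 1.58 log2 odds between days. Without day 0 untreated replicate 2, 1 member had enough calls to be tested between treated and untreated on day 0, but with 1 untreated library left. The cause was not tested for these changes. These choices of short genes, stretches and coverage settings were added after seeing the data.

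The replicate numbers did not pair the libraries (correlations of deviations from -0.0326 to 0.0147 over 4923 loci), and with the replicate block 2 pairs cannot go below an exact permutation p of 0.5, so the pooled values, such as the chromosome 13 day change of 3.20 points, had no test that could pass. In the edgeR fit with the block the member calls were 0 between days and 1 on day 1. Without the block 0% of 10526 loci were called between days and 96.8% of 12097 on day 1, so the day 1 call is not particular to the member. Restricted to members with calls in every library compared, which left H2bc6 alone, the chromosome 13 day change was 8.97 points and the difference from other loci -0.959. Member fits at higher call minimums, which no member met, gave no value. Depth limits all levels, with at most 78 treated calls per library on chromosome 13 and 39 on chromosome 3.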
